A study of Oryza sativa with 10 samples.

Results

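Polycomb repressive complex 2 (PRC2) is described here through 6 rice genes that encode its core subunits, out of 37727 loci in the count tables. They were taken by their locus identifiers, with earlier results of these data known: FIE1 (Os08g0137250), FIE2 (Os08g0137100), EMF2a (Os04g0162100), EMF2b (Os09g0306800), CLF (Os06g0275500) and iEZ1 (Os03g0307800). Each of the 6 has a row in both tables, 1 for endosperm and 1 for flag leaf. All 6 had reads in every endosperm library, and 5 of the 6 had reads in the leaf.

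PRC2 places the repressive mark of methylated lysine 27 on histone H3 and so keeps developmental genes silent. It is built from an E(z)-type methyltransferase, a Su(z)12-type zinc finger subunit, an ESC-type WD40 subunit and a histone-binding subunit of the MSI1 type. Plants carry several genes for each subunit. In cereal endosperm the complex is known for its link to imprinting and to the timing of early grain development, and rice work describes FIE1 as an endosperm gene that responds to temperature.

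The 10 directional poly(A) RNA libraries came from wild-type Oryza sativa, cultivar Nijinokirameki, all sampled 5 days after flowering in 2024. Green manure (GM) plants grew in paddy soil into which hairy vetch had been plowed and received no chemical fertilizer, and chemical fertilizer (CF) plants received a basal dressing of 56 kg/ha N, 176 kg/ha PO4 and 56 kg/ha K. The groups were GM endosperm (2 libraries), CF endosperm (2), GM flag leaf (3) and CF flag leaf (3), and the title of the series sets green manure against the heat resilience of the filling grain. Each endosperm replicate pooled spikelets from several panicles of 1 plant, with the embryo removed while frozen. Whether leaf replicates were separate plants, and whether plots were repeated, is not in the labels, so the p-values cover the spread among these libraries, which may be technical.

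Libraries held between 18656783 and 20771235 counted reads in GM endosperm, between 12200510 and 19173953 in CF endosperm, between 12500336 and 15933394 in GM leaf and between 18540688 and 25827356 in CF leaf. The 3 GM leaf libraries were all shallower than the CF ones. Tissue labels were checked on marker lists: 17 endosperm markers (glutelins, starch enzymes and their regulators) summed to between 53034 and 84415 CPM (read counts scaled to a common library size) in endosperm, against 141 to 202 CPM in leaf. A list of 24 photosynthesis markers summed to between 5267 and 8207 CPM in endosperm and between 64296 and 78022 CPM in leaf. Of these 24, 2 went the other way: RbcS1, with 4547 reads in endosperm and 120 in leaf, and LHCB1.1, with 18518 and 3812. Levels are CPM scaled by the trimmed mean of M values (TMM) over all 10 libraries. The tissues were deposited in separate tables, and tissue cannot be told apart from any difference in how their libraries were made. Levels are not divided by gene length, so levels are compared between libraries for 1 gene and never between genes. In whole tissue, fewer cells of a type and less RNA per cell cannot be told apart.

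The core genes parted into those with far more reads in endosperm than in leaf (FIE1 and CLF), those moderately higher in endosperm (EMF2a and EMF2b) and those whose tissue difference did not pass the test (FIE2 and iEZ1). Each subunit type with a gene of the first kind also had a gene of the last kind. Under GM, 4 of the 6 were higher in endosperm at an adjusted p under 0.05 by edgeR's quasi-likelihood test with Benjamini-Hochberg adjustment, and none was lower. Under CF the count was again 4 of 6 higher and none lower. The background was large: 44.6% of all loci tested were called higher in endosperm under GM and 45% under CF, so 4 of 6 is not a result about the complex by itself. Called lower were 37.7% under GM and 38.1% under CF. The median log2 fold change of the 6 was 0.82 under GM and 0.60 under CF, against 0.16 and 0.15 over all loci tested.

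**Figure D1:**
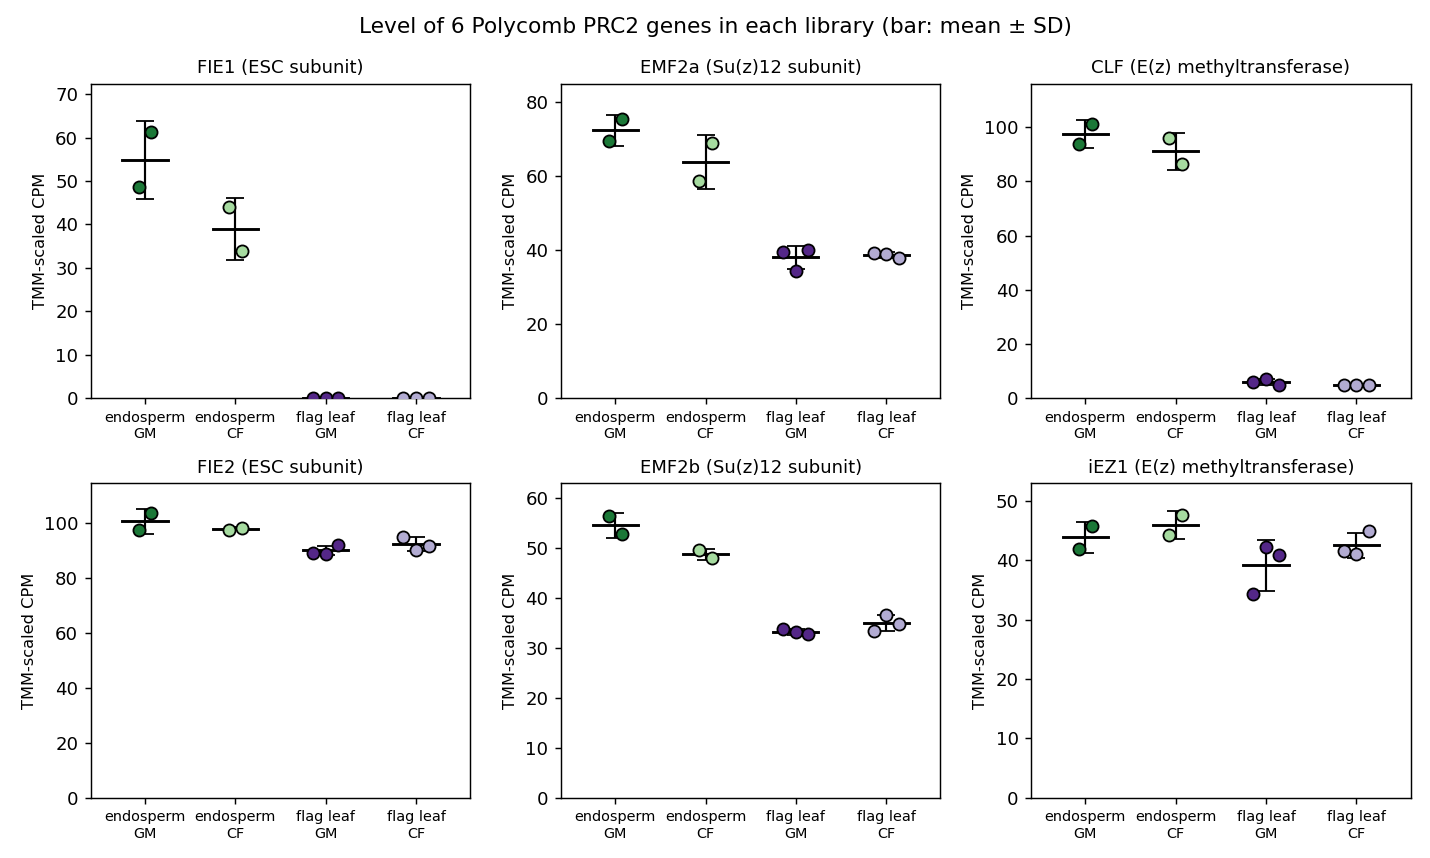
TMM-scaled CPM (vertical axis, linear from 0) of each core PRC2 gene in every library, with the group mean and SD, for GM and CF endosperm (n = 2 each) and GM and CF flag leaf (n = 3 each). FIE1 lies at 0 and CLF below 7 CPM in every leaf library, whereas FIE2 and iEZ1 lie at like levels in both tissues.

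The ESC-type subunit had a gene with reads in endosperm alone and a gene with reads in both tissues. FIE1 had 48.6 and 61.3 CPM in the GM endosperm libraries, against 44.1 and 33.9 CPM in the CF endosperm libraries, and no read in any of the 6 leaf libraries. In raw reads this was 1235 and 1311 in GM endosperm and 923 and 490 in CF endosperm. All 4 endosperm libraries thus stood above all leaf libraries, and both GM endosperm libraries stood above both CF ones. With a floor of 3 reads per library standing in for 0 in the leaf, which was a mean of 0.243 CPM under GM and 0.157 CPM under CF, FIE1 was at least 226-fold higher in endosperm than in leaf under GM and at least 248-fold higher under CF. These floors cover counting error only. FIE1 passed edgeR's test in both (adjusted p = 1.2e-09 under GM and 1.1e-09 under CF).

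FIE2, the ESC-type gene known for vegetative as well as reproductive functions, had 97.6 and 103.9 CPM in GM endosperm and 97.6 and 98.3 CPM in CF endosperm. In leaf it had 89.2, 89.0 and 92.1 CPM under GM and 95.1, 90.2 and 91.8 CPM under CF. The lowest endosperm library, at 97.6 CPM, lay just above the highest leaf library, at 95.1 CPM. The log2 fold change of endosperm over leaf was 0.16 under GM (SE 0.08, adjusted p = 0.062) and 0.08 under CF (SE 0.08, adjusted p = 0.305, edgeR). The 95% intervals ran from -0.0014 to 0.32 under GM and from -0.08 to 0.25 under CF. Under GM it was called by DESeq2 and limma-voom, with the same 0.16 and an adjusted p of 0.0494 and 0.0383. FIE1 and FIE2 are paralogs and the deposited counts hold uniquely assigned reads, so reads matching both would be missing from each. The 8778 FIE2 reads over the 6 leaf libraries came with 0 FIE1 reads.

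Both Su(z)12-type genes were higher in endosperm. EMF2a had 69.5 and 75.4 CPM in GM endosperm, against 39.6, 34.5 and 40.0 CPM in GM leaf. Under CF it had 58.6 and 69.0 CPM in endosperm and 39.3, 39.0 and 37.9 CPM in leaf. No endosperm library overlapped a leaf library. The log2 fold change was 0.93 under GM (SE 0.09, adjusted p = 2.0e-07) and 0.72 under CF (SE 0.09, adjusted p = 3.6e-06) by edgeR.

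EMF2b, known in rice for flowering time and floral organ development, had 56.2 and 52.7 CPM in GM endosperm and 33.8, 33.1 and 32.7 CPM in GM leaf. Under CF it had 49.5 and 47.9 CPM in endosperm and 33.3, 36.5 and 34.7 CPM in leaf. Again the tissues did not overlap. Its log2 fold change was 0.72 under GM (SE 0.08, adjusted p = 7.7e-07) and 0.48 under CF (SE 0.08, adjusted p = 5.1e-05) by edgeR.

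The E(z)-type methyltransferase genes differed from each other in the way the ESC-type genes did. CLF had 93.9 and 101.1 CPM in GM endosperm, against 6.03, 6.94 and 4.88 CPM in GM leaf. Under CF it had 96.0 and 86.3 CPM in endosperm, against 4.89, 4.89 and 4.80 CPM in leaf. The leaf was low but not empty: each leaf library held between 69 and 114 CLF reads. CLF was 16.5-fold higher in endosperm under GM (log2 4.04, SE 0.12, adjusted p = 6.5e-14) and 18.7-fold higher under CF (log2 4.23, SE 0.11, adjusted p = 3.2e-14) by edgeR. These log2 fold changes stood at the 87.0 and 87.3 percentiles of all loci tested.

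iEZ1, an E(z) gene annotated in the deposited tables with short-day flowering, had 41.9 and 45.7 CPM in GM endosperm and 34.3, 42.2 and 40.9 CPM in GM leaf. Under CF it had 44.3 and 47.6 CPM in endosperm and 41.5, 41.1 and 44.9 CPM in leaf. The tissues overlapped under CF, and under GM the lowest endosperm library lay just below the highest leaf library. The log2 fold change of endosperm over leaf was 0.16 under GM (SE 0.10, adjusted p = 0.144) and 0.11 under CF (SE 0.10, adjusted p = 0.310, edgeR). Both 95% intervals include 0 and end at 0.37 under GM and 0.32 under CF.

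The calls for FIE2 and iEZ1 depend on how the tissues are scaled. Upper-quartile scaling gave FIE2 a log2 fold change of 0.32 under GM and 0.25 under CF and iEZ1 0.32 and 0.27, all past the threshold. That scaling moved the median of all loci tested to 0.32 under GM and 0.32 under CF, so FIE2 and iEZ1 lay at or below the median locus in it too. FIE1, EMF2a, EMF2b and CLF were called higher in endosperm under each scaling tried.

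**Figure D2:**
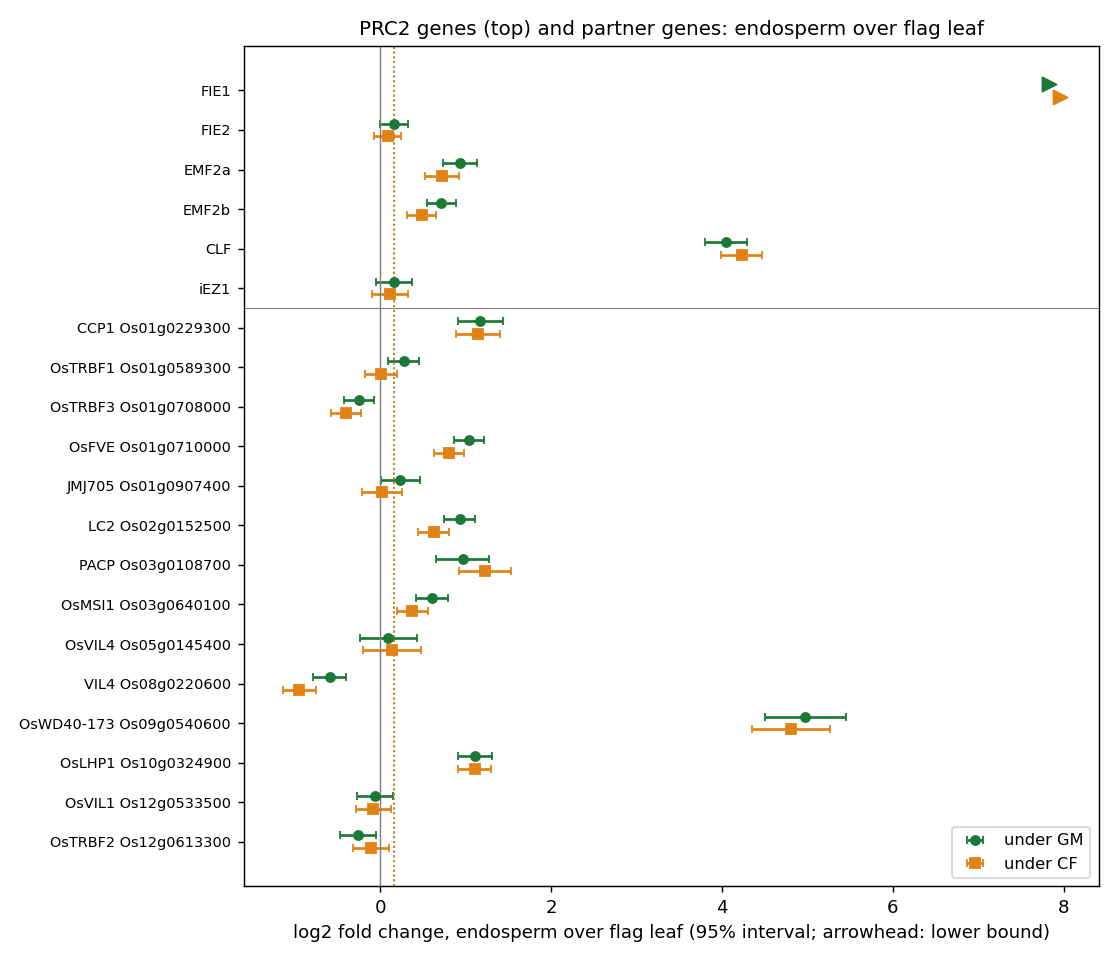
Log2 fold change of endosperm over flag leaf (horizontal axis) with 95% intervals for the 6 core genes, above the line, and 14 partner genes, below it, under GM (circles) and CF (squares); dotted lines mark the medians of all loci, and arrowheads mark the lower bounds for FIE1. CLF and the MSI1-like gene Os09g0540600 lie near or beyond 4 and FIE2 and iEZ1 beside the medians.

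The balance within a subunit type needs no library scaling, since both genes are counted in the same library. FIE1 held 35.2 ± 2.72% of the FIE1 and FIE2 reads in GM endosperm and 28.4 ± 3.88% in CF endosperm (SD, n = 2 each), and 0% in every leaf library. CLF held 69.0 ± 0.174% of the CLF and iEZ1 reads in GM endosperm and 66.4 ± 2.82% in CF endosperm (SD, n = 2 each), against 13.2 ± 2.29% in GM leaf and 10.3 ± 0.537% in CF leaf (SD, n = 3 each). EMF2a held 57.1 ± 2.54% of the EMF2a and EMF2b reads in GM endosperm and 56.6 ± 3.38% in CF endosperm (SD, n = 2 each), and 53.3 ± 2.08% and 52.6 ± 1.31% in GM and CF leaf (SD, n = 3 each). The majority of reads of the methyltransferase pair therefore belonged to CLF in endosperm and to iEZ1 in leaf, while the Su(z)12 pair was close to even in both. These are shares of reads and not of transcripts, because a longer transcript gives more reads.

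Over 8 such comparisons of log2 ratios, the CLF to iEZ1 ratio was 15.9 times as high in endosperm as in leaf (4 against 6 libraries, no overlap). The exact 2-sided permutation p was 0.00952, the smallest this design allows, and 0.0381 after adjustment over the 8. The FIE1 to FIE2 ratio gave the same exact permutation p values, and no fold is given because FIE1 was at 0 in the leaf. The EMF2a to EMF2b ratio differed by 0.23 on the log2 scale with overlapping libraries (exact permutation p = 0.0190, adjusted 0.0508).

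**Figure D3:**
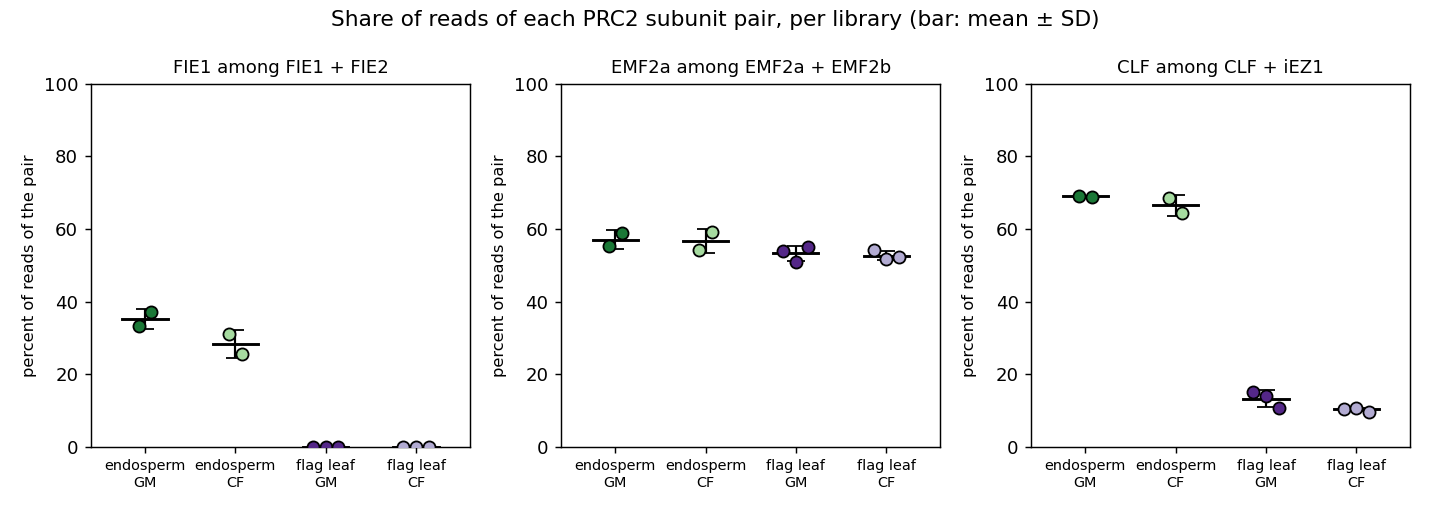
Percent of the reads of each paralog pair that belong to FIE1, EMF2a or CLF (vertical axis, 0 to 100) in every library, with group mean and SD, for GM and CF endosperm (n = 2 each) and GM and CF flag leaf (n = 3 each). The CLF share lies between 64.4% and 69.1% in endosperm and between 9.66% and 15.0% in leaf.

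Green manure against chemical fertilizer gave no called core gene in either tissue. In the endosperm 0 of 6 passed, where 1.26% of 23094 loci tested were called (7 higher and 285 lower in GM). FIE1 was the only one of the 6 with an unadjusted p under 0.05 by edgeR, which 14.6% of all loci tested had, so 1 of 6 is near the background. Its log2 fold change was 0.47 (SE 0.14, 95% interval 0.14 to 0.80, adjusted p = 0.194), at the 95.2 percentile of all endosperm changes. DESeq2 and limma-voom also called 0 of the 6 (adjusted p = 0.177 and 0.231 for FIE1).

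The FIE1 change between GM and CF in endosperm moved with single libraries, whose levels differ within each group. With any of the 4 libraries left out, 1 group is a single library and the spread comes from the other group, on the assumption that both vary alike. Without GM replicate 1, the lower GM library, the log2 fold change was 0.63 and was called (adjusted p = 0.00092, edgeR). Without GM replicate 2 it was 0.28 and was not called (adjusted p = 0.394). With no filter on low counts it was 0.47 and was called (adjusted p = 0.0023, edgeR). In that setting 1370 of 31011 loci were called, against 292 of 23094 with the filter. The share of FIE1 among FIE1 and FIE2 reads was 33.3% and 37.1% in the GM libraries, against 31.1% and 25.6% in the CF libraries. These shares did not overlap, and 2 libraries against 2 cannot give an exact permutation p under 0.333, which is the value found.

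The other core genes had smaller GM over CF values in endosperm. The log2 fold change of EMF2a was 0.16 (SE 0.11, adjusted p = 0.559), that of EMF2b 0.14 (SE 0.09, adjusted p = 0.542) and that of CLF 0.07 (SE 0.10, adjusted p = 0.792). FIE2 stood at 0.01 (SE 0.10, 95% interval -0.20 to 0.23) and iEZ1 at -0.09 (SE 0.10, 95% interval -0.32 to 0.13). None of these 5 was near the threshold, and their intervals together reach from -0.32 to 0.40.

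In the flag leaf 0 of the 5 genes that could be tested passed, where 2.94% of 20208 loci tested were called, and none had an unadjusted p under 0.05 by edgeR. DESeq2 and limma-voom called 0 as well. FIE1, at 0 reads, was not tested there. CLF had the largest log2 fold change of the 5, 0.29 (SE 0.17, 95% interval -0.07 to 0.65, adjusted p = 0.410, edgeR), with GM libraries at 6.03, 6.94 and 4.88 CPM and CF libraries at 4.89, 4.89 and 4.80 CPM. The highest CF library lay above the lowest GM library. Its ratio to iEZ1 was higher in all 3 GM leaf libraries than in any CF one, by 0.40 on the log2 scale, with an exact permutation p of 0.1, the smallest that 3 against 3 allows, and 0.2 after adjustment. The log2 fold changes of FIE2, EMF2a, EMF2b and iEZ1 lay between -0.11 and -0.02.

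Whether the fertilizer effect differed between tissues was tested for the 5 core genes with leaf reads, and none passed, where 0.615% of 25035 loci tested were called. None had an unadjusted p under 0.05 by edgeR, and DESeq2 and limma-voom called 0. The nearest was EMF2b, whose GM effect was 0.23 higher on the log2 scale in endosperm than in leaf (SE 0.12, adjusted p = 0.448, edgeR). It was followed by EMF2a at 0.21 (SE 0.13) and CLF at -0.19 (SE 0.17).

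**Figure D4:**
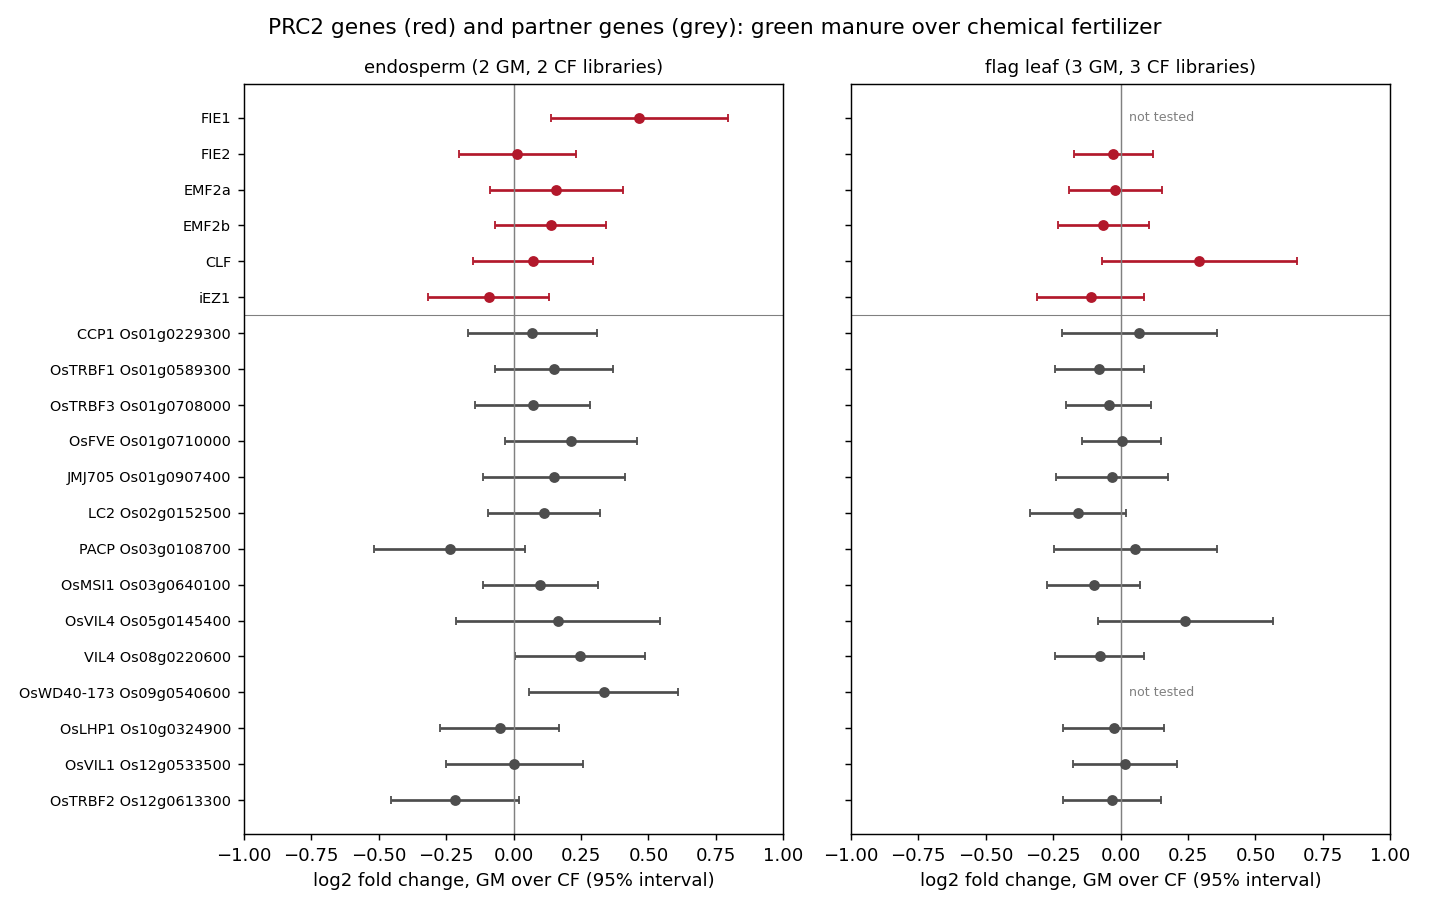
Log2 fold change of GM over CF (horizontal axis) with 95% intervals for the 6 core genes (red) and 14 partner genes (grey), in endosperm (left) and flag leaf (right). Among the core genes only the FIE1 interval in endosperm, 0.14 to 0.80, leaves out 0, and no gene shown passed the adjusted threshold.

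The endosperm libraries also differed by regime in marker lists, which are given here beside FIE1. Of the 23094 loci tested there, 1.26% were called by edgeR, 7 higher and 285 lower in GM. Genes of dividing cells (24 replication and mitotic loci) summed to between 611 and 648 CPM in GM endosperm, against 519 to 538 CPM in CF endosperm, with 0 of 23 tested called by edgeR, 9 at an unadjusted p under 0.05 (14.6% of all loci) and a median log2 fold change of 0.26. Embryo and aleurone markers (10 loci, oleosins and late embryogenesis proteins among them) summed to between 485 and 550 CPM in GM, against 996 to 1026 CPM in CF, and 5 of 8 tested were called lower in GM. In each endosperm library at most 1 of these 10 loci had no read. Heat response genes (37 loci, mostly small heat shock proteins) summed to between 799 and 824 CPM in GM endosperm, against 1613 to 1769 CPM in CF endosperm, and 12 of 29 tested were called lower in GM. Markers of maternal seed tissue (5 loci) overlapped, at 242 to 273 CPM in GM and 202 to 298 CPM in CF. Of these 5, the anthocyanidin synthase OsAns, had no endosperm read. The endosperm markers summed to between 53034 and 68559 CPM in GM and between 68721 and 84415 CPM in CF, and 0 of 16 tested were called by edgeR, 5 having an unadjusted p under 0.05. The photosynthesis markers summed to between 5267 and 5350 CPM in GM endosperm, against 5888 to 8207 CPM in CF endosperm, with 0 of 24 called by edgeR, 15 at an unadjusted p under 0.05 and a median log2 fold change of -0.38. The part of these differences in the FIE1 values was not tested.

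**Figure D5:**
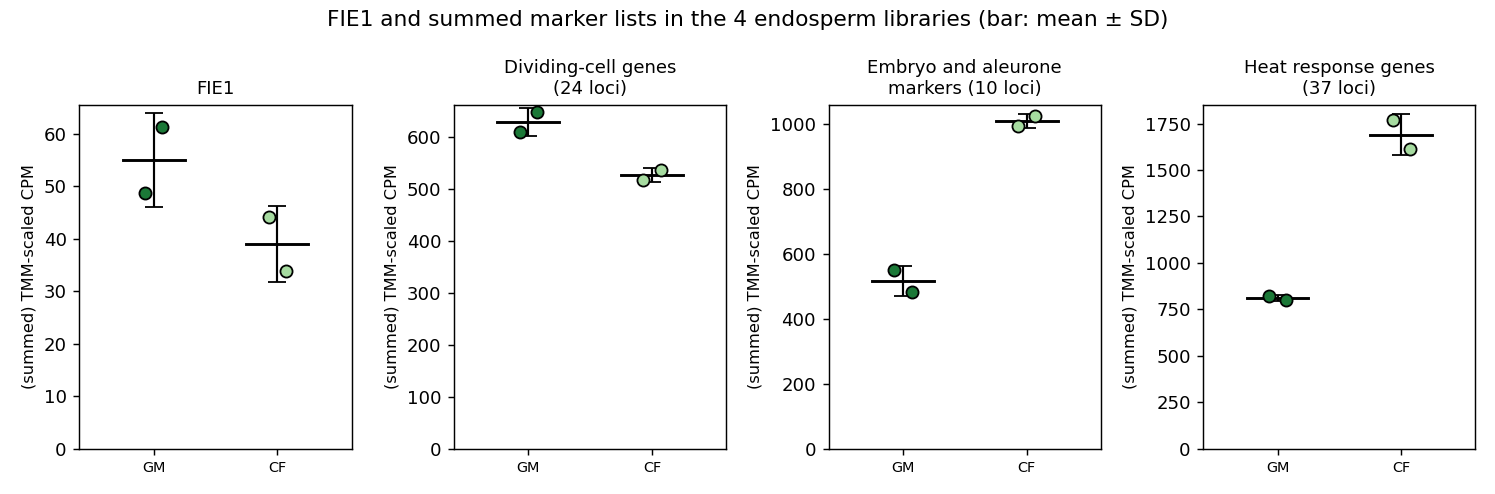
TMM-scaled CPM of FIE1 and summed CPM of 3 marker lists (vertical axes, linear from 0) in the GM and CF endosperm libraries (n = 2 each), with mean and SD. FIE1 and the dividing-cell list are higher in both GM libraries than in both CF libraries, and the embryo and aleurone and heat response lists are lower.

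Dividing-cell genes also parted the tissues in the direction of FIE1 and CLF: the list summed to between 611 and 648 CPM in GM endosperm and 127 to 135 CPM in GM leaf, and to between 519 and 538 CPM in CF endosperm and 129 to 135 CPM in CF leaf. Of 23 tested, 22 were higher in endosperm under each regime, where 44.6% of all loci were called higher under GM and 45% under CF. Their part in the tissue difference of the PRC2 genes was not tested.

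Genes that work with the core complex were followed as a list of 14 partners. Under GM 8 were higher in endosperm, 3 were lower and 3 did not pass, with a median log2 fold change of 0.44 against 0.16 over all loci. Of all loci 44.6% were called higher and 37.7% lower there. Under CF 7 were higher, 2 lower and 5 did not pass, with a median of 0.25 against 0.15, where 45% of all loci were called higher and 38.1% lower. The share of partners called higher was thus near the background.

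The genes of the MSI1 type, the histone-binding subunit, were higher in endosperm. Os09g0540600, a WD40 gene annotated as similar to MSI1, had 16.2 ± 1.03 CPM in GM endosperm (SD, n = 2) and 0.508 ± 0.0787 CPM in GM leaf (SD, n = 3). Its log2 fold change was 4.97 under GM and 4.81 under CF (SE 0.22 and 0.21, adjusted p = 9.5e-12 and 8.1e-12, edgeR), and it rested on 45 leaf reads in all. OsFVE, a homolog of Arabidopsis FVE, was higher by 1.04 under GM and 0.80 under CF. OsMSI1 was higher by 0.60 under GM and 0.37 under CF.

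OsLHP1, homolog of the Arabidopsis reader of the PRC2 mark, was higher in endosperm by 1.11 under GM and 1.10 under CF on the log2 scale. CCP1, an EMF1-like gene, was higher by 1.17 and 1.14 and PACP, a coiled-coil protein associated with PRC2, by 0.96 and 1.22 under GM and CF.

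The VIN3-like PHD proteins, which in Arabidopsis assist PRC2 at flowering genes, did not move together. LC2 was higher in endosperm by 0.93 under GM and 0.62 under CF. The locus Os08g0220600, listed as VIL4, was lower by 0.59 under GM and 0.95 under CF, with 35.8 ± 0.734 CPM in GM endosperm (SD, n = 2) against 53.9 ± 0.559 CPM in GM leaf (SD, n = 3). With library totals alone the GM value of that locus was -0.20 and no longer passed (adjusted p = 0.096, edgeR). OsVIL1 (log2 -0.06 and -0.08) and OsVIL4 at Os05g0145400 (0.09 and 0.14) did not pass under GM or CF. With library totals alone both passed as higher, OsVIL1 at 0.33 and 0.25 and OsVIL4 at 0.48 and 0.46 under GM and CF. The median of all loci tested stood at 0.55 under GM and 0.48 under CF with that scaling. Both genes, and Os08g0220600 under GM, thus lay below the median locus in it.

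The telomere repeat binding factors, whose Arabidopsis counterparts recruit PRC2 to DNA, were lower or mixed. OsTRBF3 was lower in endosperm by 0.25 under GM and 0.40 under CF. OsTRBF2 passed as lower under GM (-0.26) and did not pass under CF (-0.11), and OsTRBF1 passed as higher under GM (0.27) and did not pass under CF (0.01). The difference between regimes itself was called for 0 of the 14 partners by edgeR, DESeq2 and limma-voom, and 2 had an unadjusted p under 0.05 by edgeR, against 11.9% of all loci. With library totals alone as the scaling, OsTRBF3 stood at 0.14 under GM and -0.07 under CF. OsTRBF2 stood at 0.13 under GM and 0.23 under CF with it. That scaling moved the median of all loci tested to 0.55 under GM and 0.48 under CF. Both genes thus lay below the median locus in it too, while their place against 0 depended on the scaling. JMJ705, a demethylase that removes the PRC2 mark, did not pass (0.23 under GM and 0.02 under CF). It passed as higher under GM with upper-quartile scaling (0.39, where the median of all loci was 0.32). With library totals alone it passed under both regimes (0.63 and 0.35). Against the medians of that scaling, JMJ705 lay above under GM and below under CF.

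No partner was called between GM and CF in either tissue by edgeR, DESeq2 or limma-voom. In the endosperm 14 were tested with a median log2 fold change of 0.11 against 0.00 over all loci, and 2 of 14 had an unadjusted p under 0.05 by edgeR, against 14.6% of all loci: the MSI1-like Os09g0540600 (0.33, SE 0.13, adjusted p = 0.250) and VIL4 at Os08g0220600 (0.25, SE 0.11, adjusted p = 0.330). In the leaf 13 were tested, none with an unadjusted p under 0.05.

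Type I MADS-box genes include early endosperm regulators that PRC2 is known to repress in Arabidopsis and rice. Among 11 loci with such symbols, none had enough reads to be tested. Together they held 16 and 27 reads in the GM endosperm libraries, against 9 and 9 in the CF endosperm libraries, and none in leaf. MADS87, known in rice for seed size and heat response, had 4 and 9 reads in GM endosperm and 1 and 0 in CF endosperm. MADS98 went the other way, with 0 and 1 reads in GM endosperm and 5 and 3 in CF endosperm. At this depth no difference in this family could be judged.

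For each core gene the 3 named genes of most similar profile were sought among 7199 with a mean of at least 5 CPM, by the root mean square difference of centred log2(CPM + 1) values over the 10 libraries. For FIE1 they were SCP7, a serine carboxypeptidase (0.11), OsYUC12, an auxin synthesis gene (0.15), and OsAPY6, an apyrase (0.15). For CLF they were ARS, an argininosuccinate synthase (0.09), the ribosomal protein gene OsP0B (0.10) and BZIP21 (0.12).

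The genes with flatter profiles had closer neighbours. FIE2 was nearest to the phosphatase subunit PP2A-3 (0.022), then OsSWI3C (0.040) and OsCRN (0.044), and iEZ1 to CAP1 (0.040), OsDjC82 (0.053) and OsMED14_2 (0.062). EMF2a was nearest to the proteasome subunit OsRpn9b (0.057), then ZIP13 (0.067) and OsAGO1a (0.069), and EMF2b to WRKY121 (0.043), the proteasome subunit OsRpt1a (0.050) and OsSCD2 (0.052). All points share the same libraries and the same scaling.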

How the data were processed

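The authors deposited raw counts of unique exon reads per locus, 1 table for each tissue, per the labels' file descriptions. The submitters' processing notes name the IRGSP-1.0 build. Not given in the sources used here are the aligner, counter, read filters and strand setting, so reads of antisense neighbours may be included. Unique counts leave out reads that match more than 1 copy of a gene. No lengths, coordinates or sequences of this build were used here.

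The 6 genes, the lists, the tests and the naming rule (all core genes, detected partners, the 3 smallest p of other lists and the 3 nearest profiles) were chosen with earlier results of these data known. PACP was added after the annotation was seen. MADS87, MADS98 and OsAns were named outside the rule.

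Software was Python 3.11.15 (pandas 2.3.3, scipy 1.17.1, matplotlib 3.10.9) and R 4.3.3 (DESeq2 1.42.0, limma 3.58.1, edgeR 4.0.16). Loci passed filterByExpr (minimum count 10), libraries were TMM-scaled and groups compared with the robust quasi-likelihood F test of edgeR, called at a Benjamini-Hochberg adjusted p under 0.05 over all loci tested. GM against CF was fitted within each tissue. The tissue contrasts and the difference of GM effects came from 1 fit of all 10 libraries. SE is the log2 fold change divided by the square root of F. Paralog ratios had 0.5 added to each count. The scripts were tested on simulated data.

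Replicates differed beyond sampling noise (chi-square per degree of freedom 5.02 to 12.2). Alternatives were 2 other scalings and library totals alone, 2 other filters, DESeq2, limma-voom, the 20 most abundant genes left out, other sets of libraries in the fit, a replicate block and each library left out.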

Additional observations from a re-analysis of the deposited data

How the results depend on the processing

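Of the values recomputed under the alternatives, 721 stayed the same, 13 newly passed the threshold, 10 turned direction and 2 counts moved. For fold changes and ratios, the same means that direction and side of the threshold were kept. For counts of called genes it allows a modest change, which includes the higher core gene counts where FIE2 and iEZ1 passed. The count of core genes called between GM and CF in endosperm was 0 and became 1, FIE1, with no filter on low counts. The other moved count came from the fit without GM replicate 1, which left a single GM library. FIE1 itself kept its direction between GM and CF, at 0.28 to 0.65 with a library left out. It was 0.47 with the replicate block (adjusted p = 0.297, edgeR) and 0.55 with library totals alone (adjusted p = 0.0757, edgeR). That last scaling was added after seeing the data. The core gene counts between tissues (4 and 4), in leaf (0) and for the difference of effects (0) were the same with each library left out. With library totals alone FIE2 and iEZ1 were called higher in endosperm at 0.55 and 0.55 under GM and 0.42 and 0.44 under CF, where the median of all loci stood at 0.55 and 0.48. FIE2 under GM was also called with a filter of 5 CPM (0.19), DESeq2 (0.16) and limma-voom (0.16).

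Among the core genes and their ratios, directions turned only for values near 0. With a library left out, the GM over CF log2 fold change of FIE2 in endosperm ran from -0.039 to 0.064 (-0.017 without CF replicate 1). That of EMF2a in leaf ran from -0.054 to 0.036. The iEZ1 difference of effects ran from -0.011 to 0.13. The GM minus CF difference of the log2 EMF2a to EMF2b ratio ran from -0.12 to 0.16 in endosperm and from -0.010 to 0.11 in leaf. That leaf difference was -0.0029 after thinning to the smallest library. Among the partners, tissue values turned with library totals alone for OsTRBF3 under GM and for OsTRBF2 and OsVIL1 under both regimes. The median of all loci tested rose with that scaling too, from 0.16 to 0.55 under GM and from 0.15 to 0.48 under CF. No cause particular to these partners was tested. CLF in leaf had no value under the 5 CPM filter. Partners called between tissues under GM numbered 11, and 8 to 12 with a library left out.

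Among all loci, the 292 calls in endosperm became 1370 with no filter, 184 with limma-voom, 168 with the block, 163 with library totals and 135 to 944 with a library left out. The 594 in leaf became 987 with no filter, 335 in the joint fit and 40 to 933 with a library left out. The 154 differences of effects became 236 with no filter, 352 by DESeq2, 99 with the block and 80 to 204 with a library left out. Correlations of deviations between libraries of equal replicate number lay between -0.15 and 0.05. With 2 endosperm libraries in each group, these cannot show whether samples were paired by plant or plot. The replicate block changed no call of a core gene. Depth limits CLF and the MSI1-like Os09g0540600 in leaf and the MADS-box loci.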
